A study of Homo sapiens with 4 samples.

Results

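The autophagy machinery and its receptors were taken as 41 named genes, found by their symbols in a table of 61806 genes. All 41 were present once. They cover the initiation complex, the class III phosphatidylinositol 3-kinase complexes, the proteins that supply membrane, the conjugation enzymes, the ATG8 family, the receptors for cargo and mitochondria, and the MiT/TFE transcription factors. The rule names the genes and uses no measured value, although earlier results of these data were known when the list was drawn up.

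RNA was measured in 4 libraries of poly(A)-selected RNA, 1 for each group, so that no spread between cultures could be estimated. JJ012 cells come from a human chondrosarcoma, a tumour of cartilage, and 143B cells from a human osteosarcoma, a tumour of bone. The JJ012 control and the 143B control were untreated, and the JJ012 melatonin and 143B melatonin groups received 1 mM melatonin, the pineal hormone, for 72 h. Cells of every group were kept in suspension, where loss of attachment exposes them to anoikis, the cell death that follows detachment. Each line is 1 established culture and stands for 1 tumour, and the lines differ in many ways besides their tissue of origin.

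Macroautophagy encloses cytoplasm in a double membrane, the autophagosome, which then fuses with the lysosome. The ULK complex starts the process, the class III kinase marks the membrane with phosphatidylinositol 3-phosphate, lipid is delivered to the growing membrane, and enzymes that resemble those of ubiquitin transfer attach ATG8 proteins to it. Receptors bind both the cargo and ATG8 proteins, and several of them, SQSTM1 above all, are themselves degraded with the cargo. Cells that have lost attachment are known to turn on autophagy, and the level of an mRNA does not measure the flow of material through the pathway.

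The ATG8 family is described gene by gene further on, and the ends of its coding sequences show the feature on which all its members depend. ATG4 proteases cut the protein after a glycine near its end, and that glycine is then joined to lipid. The last 30 bases of each coding sequence follow, from GENCODE 29 transcripts, 5′ to 3′, with the codon of that glycine in capitals and the stop codon last.
MAP1LC3A: tacgcctcccaggaaaccttcGGCttctga
MAP1LC3B: gagacgttcGGGatgaaattgtcagtgtaa
GABARAP: tacagtgacgaaagtgtctacGGTctgtga
GABARAPL1: tacagtgatgagagtgtctatGGGaaatga
GABARAPL2: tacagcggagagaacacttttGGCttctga
In MAP1LC3B, 5 codons follow the glycine codon before the stop, and in each of the other 4 genes only 1 does. The glycine codon is number 120 in MAP1LC3A and MAP1LC3B and number 116 in GABARAP, GABARAPL1 and GABARAPL2. Coding sequences of GABARAP and GABARAPL1 were 76.8% identical, with 14 bases in the longest identical run, and those of MAP1LC3B and GABARAP were 55.0% identical. The parts of the transcripts outside the coding sequence were not compared. MAP1LC3B2, a separate gene outside the 41, has a coding sequence that matched that of MAP1LC3B at 376 of 378 bases. MAP1LC3B2 held 86 and 99 counts in the JJ012 control and melatonin libraries and 59 and 54 in those of 143B, so the split of reads between both genes is uncertain.

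The libraries held 15889564 to 19218343 counts. A count of 3, taken as the floor of detection, stood for 0.156 to 0.189 CPM, the counts scaled to the library's total. Mitochondrial transcripts took 6.78% of the JJ012 control, 4.35% of treated JJ012, 1.63% of the 143B control and 2.46% of treated 143B. The cartilage genes COL2A1 and ACAN were at or below 0.11 FPKM (counts scaled to exonic length and to the library's total) in all 4 libraries, while SOX9 stood at 15.06 FPKM in untreated and 6.16 in treated JJ012, and at 15.48 and 12.09 in 143B. The bone genes SP7 and IBSP were at or below 0.13 FPKM in all 4 libraries, while RUNX2 stood between 2.59 and 4.28. SPP1, also a bone marker, stood at 79.39 and 64.50 FPKM in the chondrosarcoma line JJ012 and at 0.40 and 0.53 in 143B, and COL1A1 at 10.92 and 0.77 in JJ012 and 0.49 and 0.33 in 143B. Of 8 markers each, 1 to 2 for cartilage and 3 to 4 for bone reached 1 FPKM in a library. Of 3 markers each for blood, endothelium and epithelium, at most 1 reached 1 FPKM in any library, and their part in the values below was not tested.

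Most of the 41 genes were expressed. In both JJ012 libraries 39 reached 1 FPKM, against 35 and 36 in the 143B control and melatonin libraries. Their median level was 10.7 FPKM in both JJ012 libraries, and 5.88 and 6.31 FPKM in 143B. Their share of all counts was 0.374% in untreated and 0.472% in treated JJ012, and 0.311% and 0.309% in 143B. SQSTM1 was the most abundant gene in every library, and MAP1LC3A was at or under the floor, with 3, 3, 2 and 1 counts in the order JJ012 control, JJ012 melatonin, 143B control and 143B melatonin. The same order of libraries is used for every list of 4 values.

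**Figure D1:**
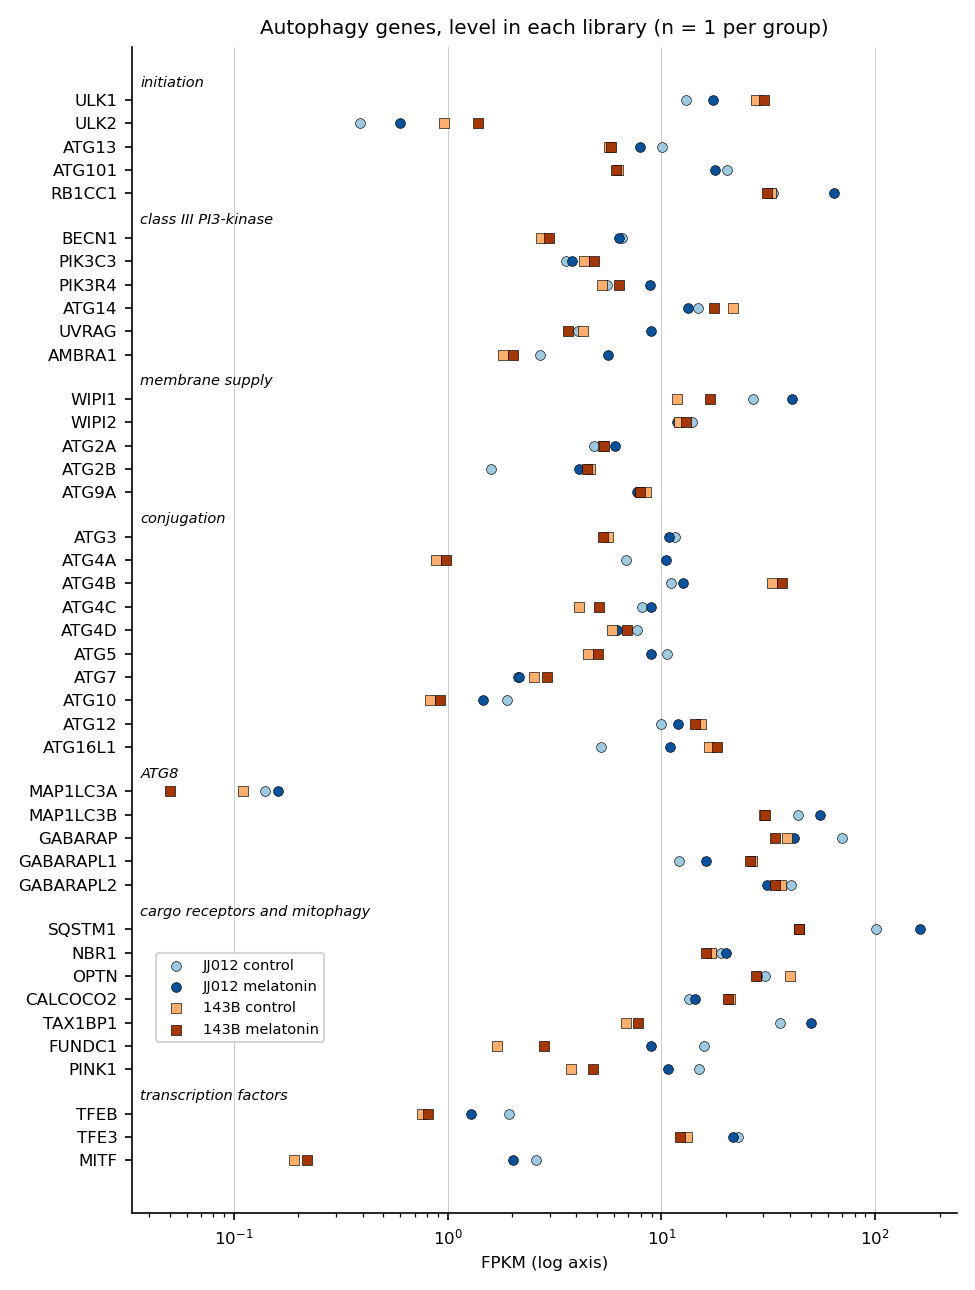
FPKM of the 41 genes on a log axis, grouped by role, with 1 point for each of the 4 libraries and no error bars because each group has 1 library. SQSTM1 sits highest, at 44.02 to 161.12 FPKM, and MAP1LC3A lowest, at 0.05 to 0.16 FPKM.

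Whether melatonin moved the machinery was asked within each line. In JJ012, 7 of the 39 genes tested were higher after melatonin and 2 were lower. They were RB1CC1, UVRAG, AMBRA1, WIPI1, ATG2B, ATG16L1 and SQSTM1 on the higher side and GABARAP and FUNDC1 on the lower side. In 143B none of the 36 genes tested passed in either direction. A gene was tested where it reached 1 FPKM in at least 1 of the libraries compared, and it was counted where the log2 fold change of FPKM + 1 was at least 0.58 in size. The pseudocount of 1 understates the change of genes at low levels.

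These counts have to be read against the background. Among all 15794 genes tested in JJ012, 38.2% passed the same threshold, 19.6% higher and 18.6% lower, and among protein-coding genes 33.9% did. The share of the autophagy genes, 23.1%, was below both. In 143B, 12.7% of all 14135 genes tested passed, 6.09% higher and 6.65% lower, and 6.09% of the protein-coding genes did. The median log2 fold change of the autophagy genes was 0.08 in JJ012, beside 0.01 over all genes tested, and 0.02 in 143B, beside 0.03. In JJ012, 21 of the 39 lay above 0 and 18 below. Scaled to TPM, which shifts the median of all genes in JJ012 to 0.27 and makes 68.8% of the genes past the threshold higher, against 51.4% with FPKM, 14 autophagy genes were higher and 0 lower, beside 50.3% of all genes, so that GABARAP (-0.47) and FUNDC1 no longer passed. By the counting interval of the CPM ratio alone, 31 of the 39 genes had an interval away from 0 in JJ012 and 18 of the 36 in 143B. Over all genes tested the same held for 72.2% in JJ012 (36.9% higher and 35.2% lower) and 52.0% in 143B (28.4% higher and 23.5% lower). With 1 library in each group, no p-value can be given for either line.

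**Figure D2:**
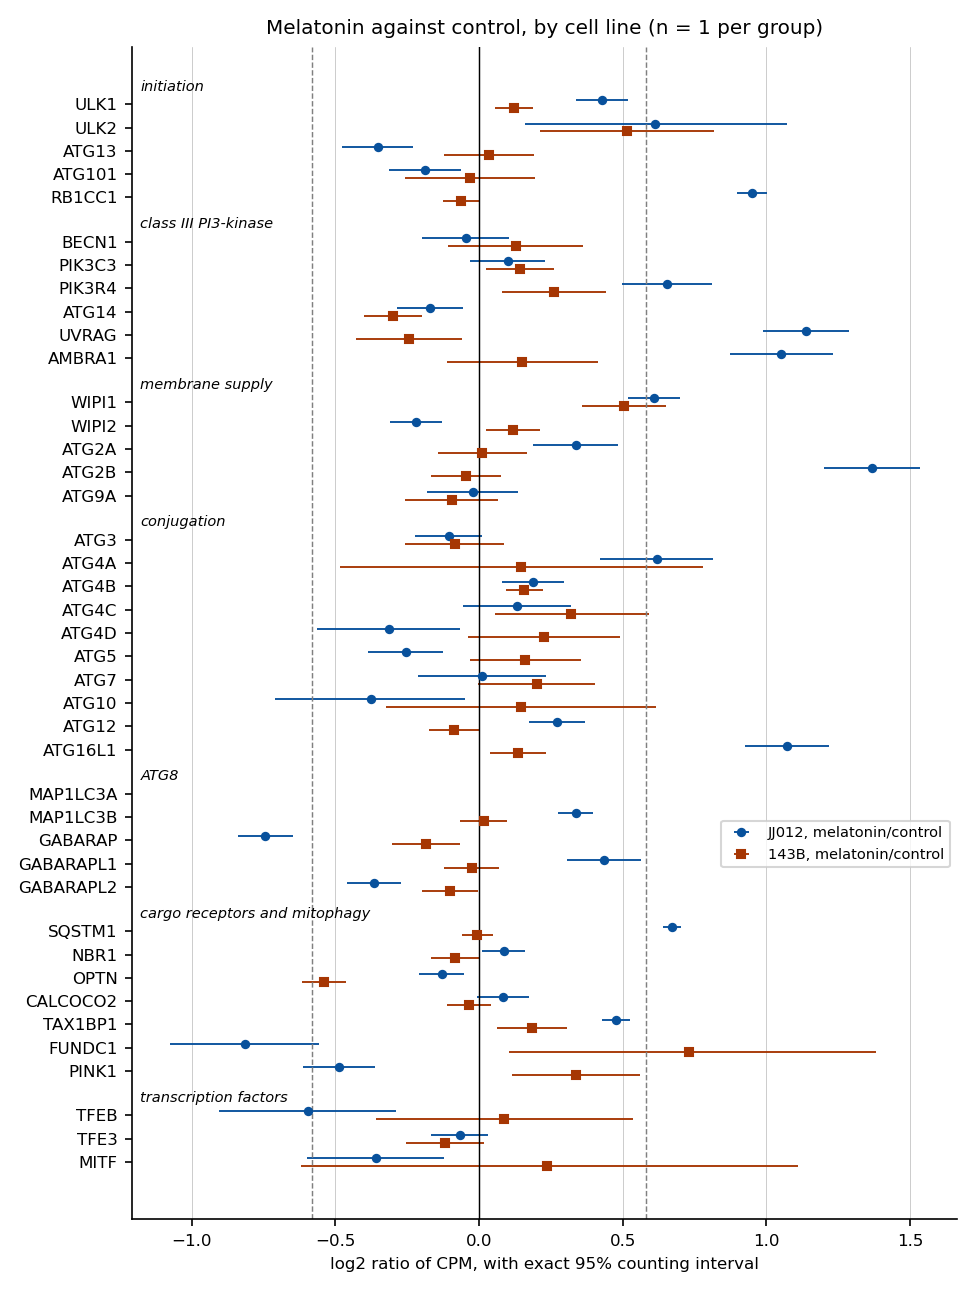
Log2 ratio of CPM, melatonin over control, for each gene but MAP1LC3A in JJ012 and in 143B, with exact 95% intervals that cover counting error only. Of the autophagy genes tested, 31 in JJ012 had an interval away from 0, 17 above and 14 below. In 143B 18 did, 12 above and 6 below. Over all genes tested the shares were 72.2% and 52.0%. ULK2, drawn above 0 in JJ012, was under 1 FPKM there and is not counted.

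Initiation held 5 genes. ULK1 and ULK2 are the kinases, and RB1CC1 (also called FIP200), ATG13 and ATG101 form the scaffold around them. RB1CC1 stood at 33.11, 63.93, 32.56 and 31.18 FPKM. By FPKM it was level between the controls of both lines and in treated 143B, and it was 1.93-fold higher in CPM in the treated JJ012 library. Its log2 CPM ratio was 0.95 (95% interval 0.90 to 1.00) in JJ012 and -0.06 (-0.13 to 0.00) in 143B, which gives a difference between the lines of 1.01 (0.93 to 1.09). ULK1 stood at 12.96, 17.45, 27.80 and 30.27 FPKM, lower in both JJ012 libraries than in either library of 143B. Its log2 CPM ratio of 0.43 (0.34 to 0.52) in JJ012 and 0.12 (0.06 to 0.19) in 143B lay above 0 in both lines, short of the threshold. ULK1 made up 95.6% to 97.1% of the summed FPKM of both kinases in every library, and ULK2 reached 1 FPKM only in treated 143B. ATG13 and ATG101 had log2 fold changes of -0.32 and -0.18 in JJ012 and 0.03 and -0.03 in 143B.

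The class III kinase group held PIK3C3, the catalytic subunit VPS34, its regulatory subunit PIK3R4, the scaffold BECN1, and 3 partners that decide where the complex works or how active it is, ATG14, UVRAG and AMBRA1. Of the 6 genes, UVRAG and AMBRA1 passed in JJ012, and the group's median log2 fold change was 0.33 there and 0.10 in 143B. UVRAG, the partner found on endosomes, on chr11:75815210-76144232 of hg38, stood at 4.05, 8.91, 4.31 and 3.64 FPKM. The treated JJ012 library was the only one above 5. Its log2 CPM ratio was 1.14 (0.99 to 1.29) in JJ012 and -0.24 (-0.43 to -0.06) in 143B, on opposite sides of 0, with a difference of 1.38 (1.15 to 1.62). AMBRA1, a regulator that binds BECN1, on chr11:46396414-46594125, stood at 2.71, 5.63, 1.82 and 2.02 FPKM. It was 2.07-fold higher in CPM in treated JJ012, with a log2 ratio of 1.05 (0.87 to 1.23), and the difference between the lines was 0.90 (0.59 to 1.22). A gene on the same strand lies over part of AMBRA1 and had 221 and 128 counts in JJ012, against 400 and 697 for AMBRA1. In 143B that gene had 391 and 440 counts, more than the 222 and 266 of AMBRA1. ATG14, which brings the kinase to the site where autophagosomes form, was the most abundant of the group, at 14.90, 13.24, 21.63 and 17.59 FPKM, with log2 fold changes of -0.16 and -0.28. BECN1 and PIK3C3 had log2 fold changes of -0.04 to 0.12 over both lines, and PIK3R4 had 0.57 in JJ012, just short of the threshold, and 0.22 in 143B.

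Membrane supply was covered by WIPI1 and WIPI2, which read phosphatidylinositol 3-phosphate, the lipid carriers ATG2A and ATG2B, and ATG9A, the lipid scramblase of the vesicles that seed the membrane. WIPI1, on chr17:68420948-68457513, stood at 26.83, 40.92, 11.87 and 16.85 FPKM. It was higher after melatonin in both lines, 1.52-fold in CPM in JJ012 and 1.42-fold in 143B. The log2 CPM ratios were 0.61 (0.52 to 0.70) and 0.50 (0.36 to 0.65), and their difference of 0.10 (-0.07 to 0.27) was within counting error. On the scale of FPKM + 1 the values were 0.59 and 0.47, either side of the threshold. WIPI2 moved in opposite directions, with log2 fold changes of -0.20 and 0.11, and WIPI1 made up 66.0%, 77.5%, 49.6% and 56.3% of the summed FPKM of the pair. ATG2B, on chr14:96279195-96363341, stood at 1.60, 4.13, 4.64 and 4.50 FPKM, low only in the JJ012 control. Its log2 CPM ratio of 1.37 (1.20 to 1.53) was the largest of the 41 genes in JJ012, against -0.05 (-0.17 to 0.08) in 143B, with a difference of 1.41 (1.21 to 1.62). ATG2B stayed under 5 FPKM in every library, below the level set for genes to be described singly, and is given because it passed the threshold. ATG2B made up 24.9% of the summed FPKM of the ATG2 pair in the JJ012 control and 40.5% to 46.5% in the other 3 libraries. ATG9A stayed between 7.71 and 8.45 FPKM in all 4 libraries.

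Conjugation was the largest group, with 10 genes, and 1 of them passed in JJ012. ATG7 activates, ATG10 and ATG3 transfer, and the complex of ATG12, ATG5 and ATG16L1 sets the place where ATG8 proteins are joined to lipid. ATG16L1, on chr2:233210051-233295674, stood at 5.21, 10.96, 16.62 and 18.27 FPKM. It was lowest in the JJ012 control, and even after melatonin JJ012 remained below both 143B libraries. The log2 CPM ratio was 1.07 (0.93 to 1.22) in JJ012 and 0.14 (0.04 to 0.23) in 143B, with a difference of 0.94 (0.76 to 1.11). Its partners did not follow. ATG5 stood at 10.65, 8.92, 4.51 and 5.04 FPKM and ATG12 at 9.94, 12.00, 15.32 and 14.42 FPKM, and their log2 fold changes in JJ012 were -0.23 and 0.25. ATG3, ATG7 and ATG10 had log2 fold changes of -0.23 to 0.00 in JJ012 and -0.07 to 0.15 in 143B.

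The ATG4 proteases, which trim ATG8 proteins before conjugation and free them again afterwards, differed between the lines more than with melatonin. ATG4B, the member with the broadest range of substrates, stood at 11.10, 12.64, 32.93 and 36.74 FPKM, and was the most abundant conjugation gene in 143B. It made up 32.9% and 33.1% of the summed ATG4 FPKM in JJ012 and 75.2% and 73.9% in 143B. ATG4A stood at 6.83, 10.48, 0.88 and 0.98 FPKM, and was 20.3% and 27.4% of the sum in JJ012 against 2.01% and 1.97% in 143B. The log2 fold change of ATG4A in JJ012, 0.55, was just under the threshold. ATG4C and ATG4D had 0.12 and -0.27 in JJ012 and 0.26 and 0.20 in 143B.

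Within the ATG8 family, GABARAP was lower after melatonin in JJ012 while MAP1LC3B and GABARAPL1 had ratios above 0. GABARAP, on chr17:7240008-7242449, stood at 69.93, 41.75, 38.81 and 34.13 FPKM. The JJ012 control was well above the other 3 libraries. The log2 CPM ratio was -0.74 (-0.84 to -0.65) in JJ012 and -0.19 (-0.30 to -0.07) in 143B, below 0 in both lines, and the difference was -0.56 (-0.71 to -0.41). GABARAPL2, also of the GABARAP branch, stood at 40.19, 31.20, 36.30 and 33.83 FPKM, with log2 fold changes of -0.36 and -0.10. MAP1LC3B, whose protein LC3B is the usual marker of autophagosomes, stood at 43.55, 54.98, 30.02 and 30.35 FPKM, with log2 fold changes of 0.33 and 0.02. GABARAPL1 stood at 12.02, 16.23, 26.43 and 25.96 FPKM, with log2 fold changes of 0.40 and -0.02. None of these 3 passed the threshold in either line.

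Seen as shares of the summed FPKM of the family, GABARAP went from 42.2% in the JJ012 control to 28.9% after melatonin, and MAP1LC3B from 26.3% to 38.1%. By FPKM, the most abundant ATG8 gene of JJ012 was therefore GABARAP in the control and MAP1LC3B in the treated library. By counts MAP1LC3B led in both, with 4216 and 4471 against 2622 and 1315. With the length trend described below removed, the log2 fold changes in JJ012 were -0.40 for GABARAP and 0.30 for MAP1LC3B. In 143B the shares were 29.5% and 27.5% for GABARAP and 22.8% and 24.4% for MAP1LC3B. GABARAPL1 took 7.25% and 11.2% in JJ012 and 20.1% and 20.9% in 143B. The summed FPKM of the family was 165.8 and 144.3 in JJ012 and 131.7 and 124.3 in 143B.

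**Figure D3:**
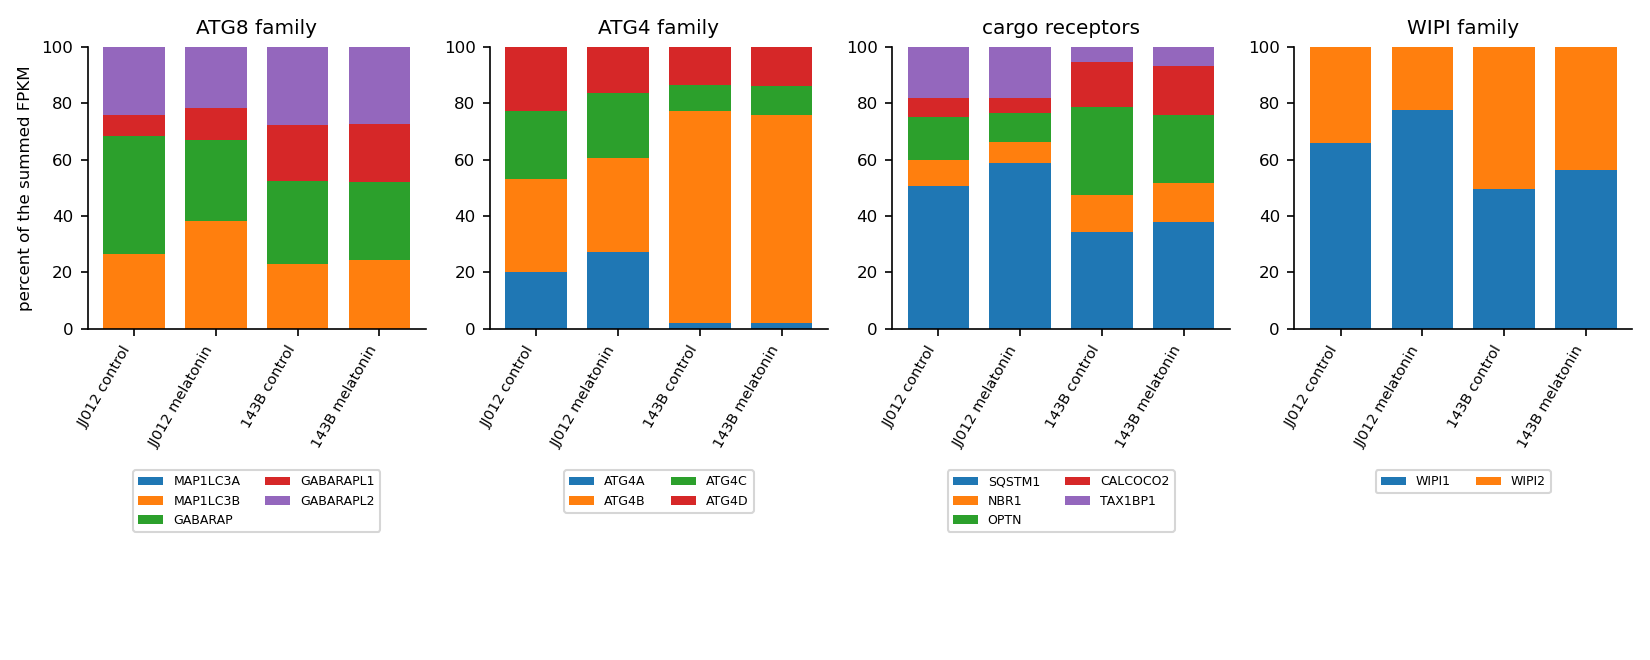
Each gene as a percent of the summed FPKM of its family in each library, as stacked bars from 0 to 100, with 1 library in each group and no error bars. In JJ012, GABARAP goes from 42.2% to 28.9% of the ATG8 family and MAP1LC3B from 26.3% to 38.1%, and ATG4B holds 73.9% to 75.2% of the ATG4 family in 143B against 32.9% to 33.1% in JJ012.

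Among the receptors, SQSTM1 (p62), which binds ubiquitin and MAP1LC3B protein, stood at 101.17, 161.12, 44.20 and 44.02 FPKM. Treated JJ012 was highest, and the libraries of 143B were level. The log2 CPM ratio was 0.67 (0.64 to 0.70) in JJ012 and -0.01 (-0.06 to 0.05) in 143B, with a difference of 0.68 (0.61 to 0.74). SQSTM1, on chr5:179806398-179838078, lies over parts of MGAT4B and MRNIP on the other strand. MGAT4B held 7334 and 5044 counts in JJ012 and MRNIP 837 and 1008, against 14650 and 19599 for SQSTM1, and reads of such genes cannot be assigned for certain where the strand setting is unknown. SQSTM1 made up 50.6% and 59.0% of the summed FPKM of the 5 cargo receptors in JJ012 and 34.3% and 38.0% in 143B.

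The other cargo receptors stayed within the threshold. OPTN, a receptor for ubiquitin-marked mitochondria and bacteria, stood at 30.48, 27.85, 40.08 and 27.56 FPKM, and its log2 fold change of -0.52 was the largest fall in size of any of the 36 genes tested in 143B. The log2 CPM ratio of OPTN in 143B was -0.54 (-0.62 to -0.46). TAX1BP1, a ubiquitin-binding receptor, stood at 35.82, 49.84, 6.84 and 7.78 FPKM, with log2 fold changes of 0.47 and 0.16. NBR1 and CALCOCO2 (NDP52) had log2 fold changes between -0.08 and 0.08 over both lines.

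FUNDC1 and PINK1 act on mitochondria. FUNDC1 is a receptor in the outer mitochondrial membrane, and PINK1 is the kinase that marks damaged mitochondria with phosphorylated ubiquitin. FUNDC1, on chrX:44523639-44542859, stood at 15.77, 8.97, 1.70 and 2.83 FPKM, from 381, 182, 34 and 61 counts. It was lower after melatonin in JJ012 and higher in 143B, where the counts were few. The log2 CPM ratios were -0.81 (-1.08 to -0.56) and 0.73 (0.10 to 1.38), and the difference was -1.55 (-2.20 to -0.89). PINK1 stood at 14.95, 10.68, 3.78 and 4.77 FPKM, also lower in treated JJ012 and higher in treated 143B. Its log2 CPM ratios were -0.49 (-0.61 to -0.36) and 0.34 (0.12 to 0.56), with a difference of -0.82 (-1.08 to -0.57), although its FPKM changes were under the threshold in both lines. The antisense gene PINK1-AS held 146, 54, 26 and 37 counts against 1389, 833, 290 and 396 for PINK1, and without a known strand setting their reads cannot be told apart.

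The transcription factors TFEB, TFE3 and MITF switch on lysosomal and autophagy genes when nutrients are short. TFE3 was the most abundant, at 22.71, 21.67, 13.22 and 12.19 FPKM, and made up 83.4% to 93.3% of their summed FPKM. TFEB stood at 1.94, 1.28, 0.76 and 0.81 FPKM and MITF at 2.58, 2.01, 0.19 and 0.22 FPKM. In JJ012 all 3 had log2 fold changes below 0, at -0.37 for TFEB, -0.06 for TFE3 and -0.25 for MITF, and none passed the threshold. In 143B only TFE3 was tested, at -0.11.

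These factors bind the letters TCACGTG and CACGTG, and TCACGTG contains CACGTG. Promoters, taken as 250 bases before to 50 after the start in RefSeq (GRCh38.p14), were matched for 36 of the 41 genes. On either strand CACGTG was found in 2 of the 36 (5.56%), ATG14 and ATG3, beside 8.77% of 27305 genes in the table. TCACGTG was found in the same promoters (5.56%, beside 4.49%). The letters TGATGNAA, the core read by ATF4 and its partners, were found in none of the 36, beside 4.46% of all genes. The 60 bases just before the start of both genes are printed with a CACGTG match in capitals, as the promoters that held it. Both lie on the minus strand and are written 5′ to 3′ along it, ATG14 at chr14:55411831-55411890 and ATG3 at chr3:112561963-112562022.
ATG14: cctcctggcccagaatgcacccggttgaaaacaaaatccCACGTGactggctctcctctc
ATG3: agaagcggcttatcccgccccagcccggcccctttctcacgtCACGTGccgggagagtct
The match begins 21 bases before the start in ATG14 and 18 in ATG3, and ATG3 has another that begins at transcribed base 6. Neither gene passed the threshold in either line, with log2 fold changes of -0.16 and -0.28 for ATG14 and -0.10 and -0.07 for ATG3.

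The controls show how far the lines differed before treatment. Of 39 genes tested, 17 were higher in the JJ012 control than in the 143B control and 6 were lower, or 59.0%, beside 68.7% of all genes tested (41.3% higher and 27.4% lower) and 64.6% of the protein-coding genes. The median log2 difference was 0.33, beside 0.29 over all genes tested, and relative to that shift (fold changes centred on the median gene) 11 were higher and 9 lower. FPKM divided by TMM factors likewise gave 11 and 9, and TPM 13 and 10. Of all genes tested, 67.0% passed after centring, 67.8% with TMM and 73.4% with TPM. In CPM, MITF was 13.8-fold higher in JJ012, FUNDC1 9.26-fold, ATG4A 7.74-fold and TAX1BP1 5.23-fold, while ATG16L1 was 3.19-fold and ATG4B 2.97-fold higher in 143B. ULK1, GABARAPL1, ATG2B and CALCOCO2 were the other genes higher in 143B. Without centring, RB1CC1 and UVRAG were level between the controls, with log2 differences of 0.02 and -0.07, and both were higher in treated JJ012.

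The change with melatonin was also set side by side between the lines. Of the 35 genes tested in both, 8 had log2 CPM ratios that differed by at least 0.58 with a 95% counting interval away from 0, or 6 higher in JJ012 (RB1CC1, UVRAG, AMBRA1, ATG2B, ATG16L1 and SQSTM1) and 2 lower (FUNDC1 and PINK1). Over all genes tested in both lines, 44.3% differed by this measure, 23.2% in the higher and 21.2% in the lower direction. By protein-coding genes alone the share was 44.8%. Set against each other over the 35 genes, the fold changes in JJ012 and 143B had a Pearson r of -0.01 and a Spearman rho of 0.03, and over 9811 protein-coding genes 0.05 and 0.01, where the genes share the same 4 libraries. WIPI1, at 0.59 and 0.47, came near or past the threshold in both lines in the same direction.

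A change shared by both lines was tested with edgeR's quasi-likelihood test, with the cell line as a block and 1 residual degree of freedom for each gene. Of 40 autophagy genes tested, 0 had a Benjamini-Hochberg adjusted p under 0.05, 0 had an unadjusted p under 0.05, and DESeq2 likewise gave 0 and 0. Over all 19301 genes, edgeR called 0.352%, with 12 higher (0.0622%) and 56 lower (0.29%), and 1139 had an unadjusted p under 0.05. ATG2B had the lowest p of the autophagy genes, 0.0991 by edgeR (adjusted p = 0.991), with a log2 fold change of 0.65 ± 0.39 (SE). WIPI1 had 0.55 ± 0.40 (SE, edgeR adjusted p = 1.00). The test averages the lines, so opposite changes such as those of FUNDC1 and PINK1 cancel in part, and the spread was pooled over all genes.

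Fold changes in JJ012 went with the length of the gene's exons, and the autophagy genes followed the same course. The 7 genes higher in JJ012 had exonic lengths of 3403 to 14256 bases with a median of 7535, and the 2 lower genes had 1257 and 1951 bases. The other 30 genes tested had a median of 5882 bases. The Pearson r between log2 fold change and log10 length was 0.46 across the 39 autophagy genes (Spearman rho 0.38) and 0.39 across 11534 protein-coding genes (0.40). Among protein-coding genes shorter than 2000 bases, 41.7% were lower and 6.16% higher in treated JJ012, and among those of 8000 bases or more 5.75% were lower and 30.9% higher. In 143B the autophagy genes had a Pearson r of -0.17 (Spearman rho 0.02) and 10878 protein-coding genes -0.11 (-0.13). There, 11.3% of the protein-coding genes under 2000 bases were higher and 5.61% lower.

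With the running median over length taken away, 6 of the 7 higher genes still passed in JJ012, at 0.66 for RB1CC1, 0.80 for UVRAG, 0.59 for AMBRA1, 0.74 for WIPI1, 0.67 for ATG2B and 0.81 for ATG16L1. SQSTM1 at 0.42, GABARAP at -0.40 and FUNDC1 at -0.47 no longer passed, and ATG4A did, at 0.74. That made 7 autophagy genes higher and 0 lower, beside 34.5% of all genes tested. Whether the trend came from the cells or from the RNA and libraries was not tested.

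**Figure D4:**
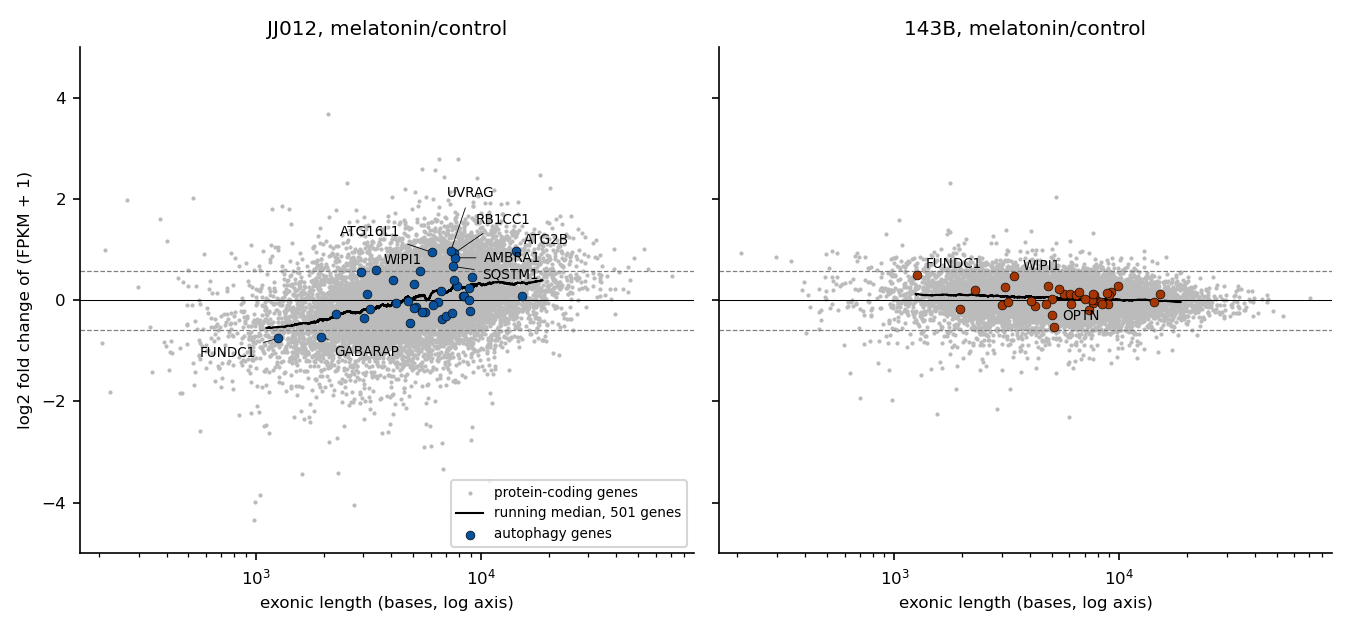
Log2 fold change of FPKM + 1 against exonic length on a log axis in JJ012 and 143B, with protein-coding genes as grey points, their running median as a line, and the autophagy genes as coloured points. In JJ012 the line goes up with length, and GABARAP (1951 bases) and FUNDC1 (1257 bases) lie at the short end and ATG2B (14256 bases) at the long end.

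Other genes of the pathway were counted on 5 lists, to be read against the 38.2% of all genes that passed in JJ012 (19.6% higher and 18.6% lower) and the 12.7% in 143B. Of 13 other core autophagy genes tested in JJ012, 4 were higher and 1 lower, with a median log2 fold change of 0.44, and in 143B 0 of 12 passed, with a median of -0.01. ZFYVE1, a lipid-droplet and omegasome protein, went from 14.87 to 24.67 FPKM in JJ012, TRAPPC8, of a tethering complex, from 4.36 to 7.88 FPKM, and TMEM41B, a scramblase of the endoplasmic reticulum, from 18.51 to 28.22 FPKM. Of 17 other receptors and mitophagy genes, 3 were higher and 2 lower in JJ012 (median 0.09), and 0 of 18 passed in 143B (median 0.00). FKBP8, a receptor on the outer mitochondrial membrane as FUNDC1 is, went from 124.17 to 42.91 FPKM in JJ012, and BNIP3, another such receptor, from 332.14 to 149.40 FPKM. WDFY3, which binds aggregates together with SQSTM1, went from 4.35 to 8.85 FPKM.

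Of the 13 fusion genes, 3 were higher and 1 lower in JJ012 (median 0.11), and 0 of 12 passed in 143B (median 0.06). The adaptor PLEKHM1 went from 5.73 to 16.58 FPKM and the autophagosomal SNARE STX17 from 3.60 to 8.53 FPKM, while the lysosomal SNARE VAMP8 went from 24.36 to 10.04 FPKM. Of 20 lysosomal genes, 1 was higher and 1 lower in JJ012 (median -0.17), and 0 of 19 were higher and 1 lower in 143B (median -0.06). NPC1, the exporter of lysosomal cholesterol, stood at 28.28, 121.62, 80.85 and 57.87 FPKM. The protease gene CTSD went from 144.43 to 82.67 FPKM in JJ012, and the protease gene CTSL from 94.51 to 60.24 FPKM in 143B.

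Of the upstream regulators in JJ012, 9 of 27 were higher and 0 lower, with a median log2 fold change of 0.39, and in 143B 2 of 25 were higher and 3 lower, with a median of -0.04. FNIP2, a partner of folliculin, went from 7.67 to 31.94 FPKM in JJ012, the stress factor DDIT3 from 44.23 to 162.32 FPKM, and FOXO3, a transcription factor held back by Akt, from 8.22 to 23.85 FPKM. DDIT3 went the other way in 143B, from 17.53 to 10.88 FPKM. FNIP2 and FOXO3 also lay below 0 there, with log2 fold changes of -0.204 and -0.202, short of the threshold. The list of regulators was not split by whether a gene promotes or restrains autophagy, so its counts give no direction for the pathway. No test of any of these lists was made.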

How the data were processed

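The authors deposited whole-number counts for each gene and library, without normalization, and FPKM, which are those counts divided by exonic length and by the library's total counts. The FPKM recomputed from the deposited counts and lengths differed from the deposited ones by at most 0.005. The submitters' processing notes name cutadapt 1.9.1, HISAT2 2.2.1, HTSeq 0.6.1, DESeq2 and hg38. The strand setting and the annotation release are not given in the sources used here. The treated column of each line was read from its suffix T.

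The genes were listed by name and not by a rule on measured values, but the genes, lists, thresholds and alternatives were chosen with earlier results of these data known. Values in every library were given for genes past the threshold with at least 5 FPKM in the line, for the ATG8 family and for the most abundant gene of each role. Outside this rule, they were also given for ATG2B, ULK1, ATG5, ATG12, ATG4A, OPTN, TAX1BP1, PINK1, TFEB and MITF. From each other list, up to 3 genes with the largest log2 fold change in either line at 5 FPKM or more were named.

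Log2 fold changes used FPKM + 1, with a threshold of 0.58 in size after the study's methods. Those methods also required an adjusted p under 0.05, which was not applied within a line because each group has 1 library. Single genes were given the log2 ratio of CPM with an exact (Clopper-Pearson) 95% interval. The difference between the lines was given a normal 95% interval on the log scale from the 4 counts. All intervals cover counting error only, since counts of amplified reads are not independent molecules and no culture was repeated. A change shared by both lines was tested on the counts with edgeR 4.0.16 (R 4.3.3, TMM, filterByExpr, quasi-likelihood, cell line as a block), with DESeq2 1.42.0 as an alternative. Its p-values rest on the difference between the lines as the only spread, which edgeR pooled over all genes (its prior degrees of freedom were infinite), so that a gene's error did not come from its own difference between the lines. The length trend taken away was a running median over all genes tested in a comparison, in order of length. The line in the plot of fold change against exonic length is the running median of the protein-coding genes alone. Gene types and coding sequences came from GENCODE 29 (58254 of 61806 genes matched), and the planned comparison of ATG8 proteins was replaced by coding sequences. Scripts used Python 3.11.15 and were tested on simulated data.

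The alternatives were a smaller pseudocount (0.1 FPKM), a filter of 5 FPKM or none, centring on the median gene, TPM, CPM, TMM, removal of the length trend, a threshold of 1, and CPM ratios with the interval away from 0. For the shared change they were library totals, no filter, no block and DESeq2.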

Additional observations from a re-analysis of the deposited data

Results flagged for a closer look

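In 5 of 35 autophagy genes (14.3%) the exact 95% counting intervals of the log2 CPM ratio, melatonin over control, lay wholly on opposite sides of 0 in JJ012 and 143B, beside 21.5% of all 11822 genes tested in both lines. With 1 library in each group the difference between the lines was not tested against any spread between cultures. UVRAG was higher in JJ012 and lower in 143B, with a difference of 1.38 (95% counting interval 1.15 to 1.62), and ATG12 likewise, with a difference of 0.36 (0.23 to 0.49). The interval of ATG12 in 143B, -0.1732 to -0.0005, all but touched 0. AP3S1 overlaps ATG12 on the other strand, with 2483 and 1335 counts in JJ012 against 1694 and 1718, and the strand setting is unknown. FUNDC1 was lower in JJ012 and higher in 143B, with a difference of -1.55 (-2.20 to -0.89). The same order held for PINK1, at -0.82 (-1.08 to -0.57), and for WIPI2, at -0.34 (-0.47 to -0.21).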

How the results depend on the processing

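Of the 9 genes past the threshold in JJ012, RB1CC1, UVRAG, AMBRA1, WIPI1 and ATG16L1 passed under 9 of 10 alternatives, ATG2B and SQSTM1 under 8, and GABARAP and FUNDC1 under 7. Some alternatives could hardly change this. The filters leave a gene's value as it is (0.929 for RB1CC1), and centring took RB1CC1 only to 0.92. A threshold of 1 left 0 higher and 0 lower in JJ012, beside 14.7% of all genes tested. Between the controls it left 10 higher in JJ012 and 5 lower, beside 47.2% of all genes. TPM moved the median of all genes in JJ012 to 0.27 and the share of called genes that were higher from 51.4% to 68.8%. Under TPM, 14 autophagy genes were higher and 0 lower in JJ012 (median 0.35), beside 50.3% of all genes, with GABARAP at -0.47. In 143B TPM gave 1 higher (FUNDC1) and 1 lower (OPTN), with a median of -0.031, beside 19.3% of all genes. Between the controls it gave 13 higher and 10 lower, with a median of 0.002, beside 73.4% of all genes. FUNDC1 was also the 1 gene higher in 143B with a pseudocount of 0.1 and with CPM ratios whose interval was away from 0. Of all genes, 20.9% and 14.1% passed in these settings. Without the length trend, 7 were higher and 0 lower in JJ012, beside 34.5% of all genes. The medians were then -0.046 in JJ012, -0.004 in 143B and 0.193 between the controls. The median in 143B was -0.006 with a filter of 5 FPKM and -0.004 after centring. Between the controls, centring gave 11 higher and 9 lower with a median of 0.048, beside 67.0% of all genes. TMM gave 11 higher and 9 lower with a median of 0.029, beside 67.8%, and no filter a median of 0.183. The causes of these moves were not tested. For the change shared by both lines, edgeR without the cell-line block called 0 genes higher and 0 lower (6 with an unadjusted p under 0.05), and DESeq2 0 higher and 7 lower (328). Of the alternatives for values that answer a comparison, 74 gave a value close to the one reported, 23 moved it and 5 turned its sign.

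Treated and control libraries could be paired only by cell line, because the labels give no other pairing. The cell line was the only block, and it was part of the test of the change shared by both lines. With 1 library in each group, none could be left out of a comparison within a line. Depth limits FUNDC1, ATG4A and MITF in 143B, at 22 to 61 counts, and MAP1LC3A in every library.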
